A study of Mus musculus with 16 samples.

Results

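The CCR4-NOT complex is the main deadenylase of the cytoplasm, the enzyme assembly that removes the poly(A) tail of an mRNA and so starts its decay. It is built on the scaffold CNOT1, to which the NOT module (CNOT2 and CNOT3) and the CNOT10-CNOT11 module bind, and it carries a pair of exonucleases, one of the CAF1 type (CNOT7 or CNOT8) and one of the CCR4 type (CNOT6 or CNOT6L). RNA-binding proteins such as TTP, which recognises AU-rich elements in cytokine mRNAs, bring the complex to their targets. CPEB4, a protein that binds the cytoplasmic polyadenylation element (CPE, a U-rich motif of the 3′UTR), acts on the same tails by promoting their elongation. The values below describe the mRNAs of the deadenylase itself: their levels in macrophages, their recovery with an anti-CPEB4 antibody and their change after LPS.

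The 10 genes examined were Cnot1, Cnot2, Cnot3, Cnot4, Cnot6, Cnot6l, Cnot7, Cnot8, Cnot10 and Cnot11, out of 14925 genes with a counted 3′UTR. They were chosen by symbol, with earlier results of these data known. Cnot9, listed under its older symbol Rqcd1, is a core subunit outside this set and is given only for comparison. The study sequenced RNA immunoprecipitated with the anti-CPEB4 antibody (RIP) and the matching lysate RNA (Input) from bone marrow-derived macrophages (BMDMs) of strain C57BL/6J 129. There were 4 cell conditions: wildtype (WT, culture 76) or Cpeb4 knockout (KO, culture 73, from mice lacking Cpeb4 in every cell), each untreated or given LPS (bacterial lipopolysaccharide, 10 ng/ml) over 9 h. The 16 samples were 8 libraries, each run on 2 sequencing lanes that were already summed in the counts, so every condition had 1 library and no replicate. No p-value was therefore calculated. Intervals given with the values are 95% intervals for counting error alone, and they leave out the spread between animals, cultures and immunoprecipitations.

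The libraries held between 467696 (KO RIP, untreated) and 2492300 (WT RIP, LPS) reads in named 3′UTRs. These made up 46.4% to 51.1% of all reads in the 4 Inputs, 48.9% and 70.1% in the WT RIPs and 27.3% and 31.8% in the KO RIPs. Levels were scaled to these 3′UTR sums and written as CPM (reads of a gene relative to that sum). Scaling to all reads of a library instead raises every WT over KO RIP ratio by 0.84 (untreated) or 1.14 (LPS) on the log2 scale, and lowers those of RIP over Input in the KO (shifts of -0.77 and -0.68). It turned the sign of 16 of 114 member ratios, and values under it are given beside the main results it bears on. All 10 macrophage markers were detected in every library, with a summed level of 1910 to 4680 CPM, while the lists for T cells, B cells, neutrophils, fibroblasts, dendritic cells and mast cells summed to at most 9.05 CPM each. These low sums rest on few genes. The counts covered 3 of 4 T cell, 2 of 3 B cell and 1 of 5 neutrophil genes. They also covered 2 of 4 fibroblast, 2 of 2 dendritic cell and 1 of 2 mast cell genes. The LPS response genes summed to 55.8 and 76.4 CPM in the untreated Inputs and to 2060 and 2100 CPM in the LPS Inputs. The macrophage list was higher in the KO RIPs (4680 and 3300 CPM) than in the WT RIPs (2340 and 1910 CPM), and its part in the ratios below was not tested. Cpeb4 itself had 121 and 258 Input reads in the WT (untreated, LPS) and 69 and 79 in the KO, a log2 WT over KO ratio of 1.31 (0.89 to 1.74) and 1.36 (1.0 to 1.72). Its mRNA was still recovered in the KO RIPs, with log2 RIP over Input ratios of 2.29 (1.87 to 2.72) and 2.79 (2.44 to 3.14). In the WT these ratios were 2.67 (2.4 to 2.94) and 2.5 (2.31 to 2.68). Taken as RIP minus Input, its log2 WT over KO ratio was 0.38 (-0.12 to 0.88) and -0.29 (-0.69 to 0.11), with intervals that included 0. The deleted part of Cpeb4 is not given in the sources used here, so its 3′UTR reads were a limited check of the genotype labels.

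The windows below, of at most 30 bases, were read from the mouse genome build GRCm38 (the files use mm10, the same coordinates) on the transcribed strand, 5′ to 3′. They come from the 4 exonuclease mRNAs and hold forms of the CPE, the motif that CPEB4 binds in general. Each window was picked for its motif content, and binding of CPEB4 to it was not tested. Capitals mark CPE forms and the polyadenylation hexamers (AATAAA or its variant ATTAAA), and the Cnot6 window holds CPE forms only.
Cnot7 (chr8:40493028-40493055, minus strand): TTTTATatcAATAAAaatacaaAATAAA
Cnot8 (chr11:58118555-58118578, plus strand): gtTTTTAATTTTGTaaAATAAAga
Cnot6 (chr11:49672235-49672258, minus strand): tgtTTTTGTttgtacTTTTATttg
Cnot6l (chr5:96072116-96072138, minus strand): ctATTAAAtgttgacTTTTATgg
The Cnot7 window spans the end of the shorter of its annotated 3′UTRs, with a CPE just upstream of a hexamer. In Cnot8 overlapping TTTTAAT and TTTTGT forms lie 2 bases upstream of the last hexamer of the 3′UTR, which itself ends 18 bases before the region does.

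The search took 7 CPE forms on the transcribed strand, with overlaps counted: TTTTAT is the main one, TTTTAAT and then TTTTAAAT are longer ones, TTTTACT differs inside, as does TTTTCAT, while TTTTAAGT is another long form and TTTTGT the last. All 10 members had at least 1 match, against 73.4% of the 14925 3′UTRs. The Cnot7 region had 14 matches in 1447 bases, and regions within 0.8 to 1.25 times its length had a median of 4. Cnot6 had 24 against a median of 10, and Cnot6l had 38 against 21. Of the others, Cnot3 had 2 against 0, Cnot2 had 6 against 2, and Cnot1 and Cnot8 each had 4 against 2. The number of matches was thus above the median for their length in every member, by the smallest margin in Cnot10 (2 against 1) and Cnot11 (5 against 4). In the files' own CPE prediction, which also weighs the distance to the hexamer, 7 of the 10 members had a prediction in the region counted (not Cnot1, Cnot2 or Cnot10), against 31.8% of all genes. That prediction named activation for Cnot8, activation and repression for Cnot3, and repression for Cnot4, Cnot6, Cnot6l, Cnot7 and Cnot11. For the shorter 951-base 3′UTR of Cnot7, nested in the counted region, it named both activation and repression. That shorter 3′UTR held 14 of 15 (untreated) and 77 of 80 (LPS) Cnot7 reads in the WT Inputs. In the KO Inputs it held 30 of 34 and 72 of 76. In Cnot7, 7 of 8 hexamers had a CPE ending within 100 bases upstream, while in Cnot11 none of 4 did. Cnot6l had 28 copies and Cnot6 13 copies of the AU-rich pentamer ATTTA, against medians of 11 and 6 in regions of like length.

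In the Inputs the exonuclease mRNAs held 77.5% (74.2 to 80.5, WT LPS) to 84.7% (80.7 to 87.9, WT untreated) of the reads of the 10 members, on regions that make up 62.0% of the members' summed length. In such bulk libraries fewer cells with an mRNA and less of it per cell cannot be told apart. The levels of single genes were compared per kb of the counted region. By the median of the 4 Inputs, Cnot3 stood first at 82.3 CPM per kb (range 39.3 to 98.1). Cnot8 followed at 55.3 (33.5 to 59.9) and Cnot6 at 33.6 (24.8 to 39.7). For comparison, the median of the 7125 genes with at least 80 reads over the 8 libraries lay at 26.4 to 28.5 CPM per kb. Cnot7 had a median of 23.4 (11.2 to 35.0), Cnot2 of 19.4 (17.3 to 27.6) and Cnot6l of 18.4 (10.3 to 30.7). The scaffold Cnot1 was lower, at 9.32 (5.63 to 14.3). Cnot10 at 5.87 (1.44 to 6.99), Cnot11 at 5.83 (2.89 to 9.33) and the ubiquitin ligase Cnot4 at 1.84 (0.938 to 2.43) came last. The ranges of every pair of neighbours in this order overlapped, except those of Cnot11 and Cnot4. The Cnot3 position is uncertain, because its whole 274-base region (chr7:3660827-3661100, plus strand) lies inside the 3′UTR of Leng1 on the opposite strand. Strand-specific counting is not stated, so reads of both genes cannot be told apart. A copy of that region with 96.3% identity also lies on chromosome 3. Shorter copies of at least 95% identity exist for parts of Cnot1 (264 bases), Cnot8 (260 bases) and Cnot11 (222 bases), and none was found for Cnot2, Cnot4, Cnot6, Cnot6l, Cnot7 or Cnot10. The Cnot4 region does not lie wholly within an annotated UTR of that gene in GENCODE M21, which bears on its level per kb. A separate Cnot4 3′UTR of 1065 bases, with 2 to 12 reads per Input, was not used. The last place of Cnot4 therefore holds for the region used.

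**Figure D1:**
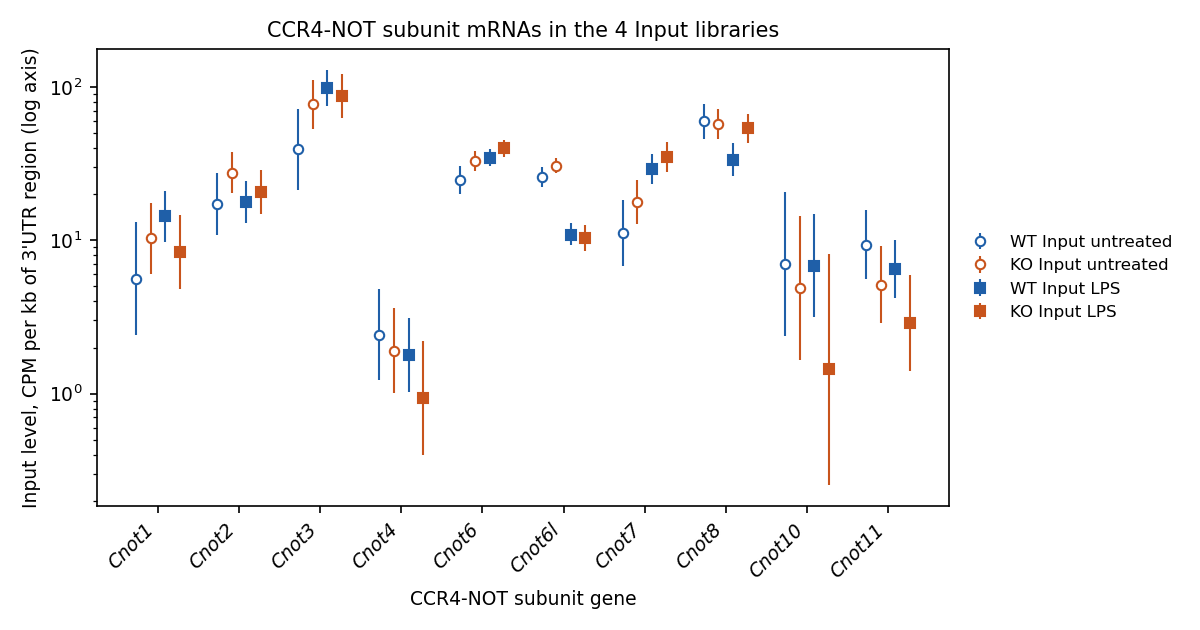
Input level of each CCR4-NOT subunit mRNA in CPM per kb of its counted 3′UTR region (log axis), with 1 point per Input library and bars for the 95% Wilson counting interval. Cnot3 and Cnot8 lie highest, Cnot4, Cnot10 and Cnot11 lowest, and Cnot6l separates into high untreated and low LPS points.

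The RIP over Input ratio asked which mRNAs the anti-CPEB4 antibody recovered. Among the members Cnot7 was recovered most in the WT, followed by Cnot6 in each treatment, whereas Cnot2 stood at 0.27 and 0.02 and Cnot1 at 0.27 (12 RIP and 5 Input reads) and -0.69 in log2 RIP over Input (untreated, LPS). Cnot7, a CAF1-type exonuclease, had 15 reads (16.1 CPM) in the untreated WT Input and 242 (145 CPM) in the RIP. After LPS it had 80 (42.2 CPM) and 613 (246 CPM). The log2 ratios were 3.08 (2.35 to 3.81) untreated and 2.53 (2.19 to 2.86) after LPS, above those of 97.8% and 96.6% of the genes measured. In the KO, Cnot7 had 34 Input and 19 RIP reads untreated and 76 and 94 after LPS, with log2 ratios of 0.70 (-0.10 to 1.49) and 1.09 (0.66 to 1.52). The WT and KO intervals for Cnot7 did not overlap in either treatment.

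Cnot6, a CCR4-type exonuclease, had 85 Input and 412 RIP reads in the untreated WT and 241 and 880 in the LPS-treated WT. Its log2 ratios of 1.42 (1.09 to 1.76) and 1.47 (1.27 to 1.68) had intervals above those of the KO, 0.49 (0.10 to 0.87) and 0.34 (0.05 to 0.63). Under library totals the KO ratios turned to -0.28 (-0.67 to 0.11) and -0.35 (-0.64 to -0.05). The KO values came from 161 Input and 79 RIP reads untreated and from 220 and 161 after LPS. For its paralogue Cnot6l the intervals of the genotypes overlapped. It had 164 Input and 597 RIP reads in the untreated WT, 142 and 500 in the LPS WT, 279 and 199 in the untreated KO, and 106 and 125 in the LPS KO. These gave log2 ratios of 1.02 (0.77 to 1.26) and 1.42 (1.15 to 1.68) in the WT, and of 1.02 (0.76 to 1.28) and 1.02 (0.65 to 1.39) in the KO. All 4 Cnot6l ratios were over 0.5, but under library totals the KO ratios were 0.25 (-0.01 to 0.51) and 0.34 (-0.03 to 0.71), beside 1.08 and 1.93 in the WT.

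Cnot8, the other CAF1-type exonuclease, had 56 Input and 137 RIP reads in the untreated WT and 64 and 136 after LPS, and its log2 ratio was 0.43 (-0.01 to 0.88) and 0.68 (0.26 to 1.11). In the KO the 76 Input and 21 RIP reads (untreated) and the 81 and 33 reads (LPS) gave -0.30 (-0.99 to 0.38) and -0.48 (-1.06 to 0.09). The LPS intervals of the genotypes did not overlap. Cnot3 differed between treatments in the WT, at 1.34 (0.40 to 2.28) untreated, from 10 Input and 49 RIP reads, and -0.31 (-0.86 to 0.23) after LPS, from 51 and 54 reads, a difference of -1.65 (-2.74 to -0.57) in reads that cannot be told apart from those of Leng1. Under library totals its LPS value was 0.20 (-0.35 to 0.75). The remaining members had few reads. Cnot4 (5 to 30 reads per library) and Cnot11 (7 to 39 reads) had higher point ratios in the KO than in the WT. Cnot4 stood at 0.94 and 0.66 in the WT, with KO values of 1.88 and 2.2, and Cnot11 at 0.42 and 0.54 against 1.62 and 2.18, with overlapping intervals. Cnot10 had 1 to 11 reads per library and no pair with 20.

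Counted by a log2 ratio over 0.5 in size with at least 20 reads in the pair, 5 of 8 members were over and 0 under in the untreated WT, against 37.3% over and 34.4% under among 7013 genes. In the LPS-treated WT 6 of 9 were over and 1 under (background 36.0% and 37.6%). In the untreated KO 4 of 8 were over and 1 under (28.6% and 29.8%), and in the LPS-treated KO 5 of 9 over and 0 under (28.5% and 30.1%). The members' median was 0.98, 0.66, 0.59 and 0.79 in that order, beside an all-gene median between -0.06 and 0.05. Under library totals the KO splits became 2 over and 3 under in each treatment, and the untreated KO ratio of Cnot7 became -0.07 (-0.86 to 0.72). Among all genes the same scaling put 9.75% over and 63.0% under in the untreated KO, and 10.8% and 60.2% in the LPS-treated KO. The WT splits became 5 over and 0 under (39.0% and 32.8% of all genes), and 7 over and 0 under (50.3% and 26.0%). Among the 10 members, a peak was listed for the exonuclease mRNAs only. The core subunit Cnot9 (Rqcd1), outside the set, had a peak too, in the LPS WT RIP (151.3). Cnot7 had peak scores of 445.81 (untreated) and 1921.26 (LPS) in the WT RIPs and Cnot6 of 200.66 and 1300.65, with no peak in the KO. Cnot6l had a peak in the untreated KO too (73.37, beside 60.34 in the untreated WT and 245.37 in the LPS WT), and Cnot8 only in the LPS WT (85.53). In all, 3 members had a peak in the untreated WT RIP and 4 in the LPS WT RIP, where 6.83% and 15.4% of genes had one. In the KO RIPs 1 and 0 members had one, beside 1.03% and 1.17% of genes.

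**Figure D2:**
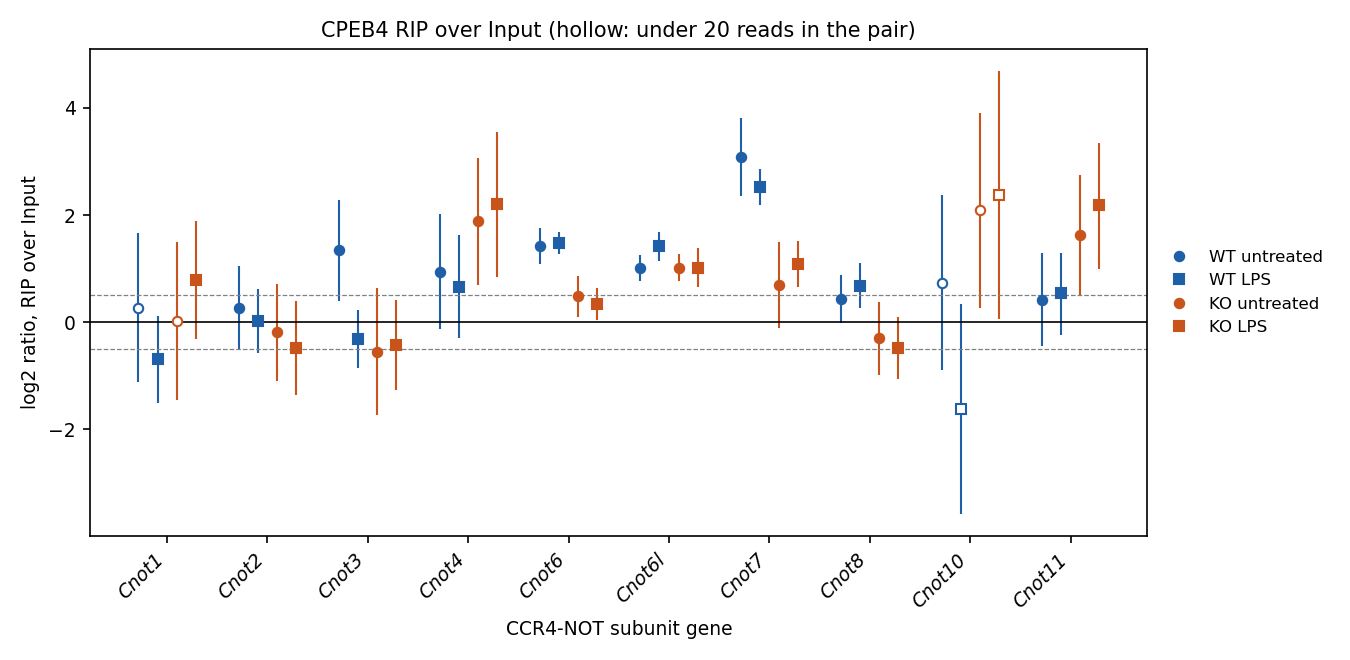
Log2 RIP over Input ratio of each member in the 4 conditions, with 95% counting intervals. Dashed lines mark 0.5 in either direction, and hollow points had under 20 reads in the pair. The WT points of Cnot7 and Cnot6 lie above their KO points, and the 4 Cnot6l points lie between 1.02 and 1.42.

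The study defined mRNAs associated with CPEB4 from the comparison of WT with KO RIPs, by limits on the fold together with a p-value or peak score. Those limits were not applied here, and the ratios below are scaled to the 3′UTR sums unless library totals are named. For Cnot7 the RIP level was 145 CPM in the WT and 40.6 CPM in the KO untreated, and 246 and 108 CPM after LPS, giving log2 ratios of 1.77 (1.11 to 2.43) and 1.18 (0.86 to 1.49). Cnot6 had 247 and 169 CPM untreated and 353 and 185 CPM after LPS, with ratios of 0.54 (0.19 to 0.88) and 0.93 (0.69 to 1.17). Both mRNAs were higher in the WT RIP in each treatment. Cnot8 had 82.2 and 44.9 CPM untreated, a ratio of 0.82 (0.17 to 1.47), and 54.6 and 37.9 CPM after LPS, a ratio of 0.49 (-0.05 to 1.04). Under library totals the ratios (untreated, LPS) were 2.61 and 2.32 for Cnot7, 1.38 and 2.07 for Cnot6, and 1.66 and 1.64 for Cnot8. Cnot6l had 358 CPM in the WT and 425 CPM in the KO untreated, and 201 and 143 CPM after LPS. Its ratio of -0.25 (-0.48 to -0.02) untreated and 0.48 (0.19 to 0.76) after LPS thus had opposite signs, which library totals turned to 0.59 and 1.62. Cnot3 stood at 1.0 (-0.14 to 2.14) untreated on 49 and 6 reads. Of the members with at least 20 reads, 4 of 8 were over 0.5 and 1 under untreated (background 25.4% and 27.4%), and 2 of 9 over and 3 under after LPS (28.0% and 27.8%). The 3 under after LPS were Cnot1 (-0.76, -1.75 to 0.23), Cnot4 (-0.76, -1.65 to 0.13) and Cnot11 (-0.59, -1.35 to 0.18). Library totals moved them to 0.38, 0.38 and 0.55, and the splits to 6 of 8 over and 0 under, and 7 of 9 over and 0 under. That scaling put 65.7% of all genes over and 4.66% under untreated, and 76.7% and 4.17% after LPS, so the members' shares were near the background there. It also turned the untreated values of Cnot2 (-0.18) to 0.67 and of Cnot11 (-0.36) to 0.48. The members' share over 0.5 after LPS, 2 of 9, was no higher than that of all genes.

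Over all genes the Inputs differed less often between genotypes than the RIPs. Cnot7 had 16.1 CPM in the WT and 25.6 in the KO untreated and 42.2 and 50.6 after LPS, with ratios of -0.62 (-1.47 to 0.24) and -0.26 (-0.71 to 0.19). Cnot6 stood at -0.40 (-0.78 to -0.02) and -0.21 (-0.47 to 0.06). Both were thus no higher in the WT Input while higher in the WT RIP. Cnot8 stood at 0.08 (-0.41 to 0.57) untreated and was lower in the WT after LPS (-0.67, -1.14 to -0.20). Cnot11 was higher in the WT Inputs in point value only, at 0.84 (-0.26 to 1.93) and 1.06 (-0.12 to 2.23). In all, 1 of 7 members was over and 3 under untreated (background 9.52% and 13.0%), and 2 of 8 over and 1 under after LPS (12.4% and 8.76%).

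Corrected for the Inputs (RIP minus Input, each as log2 WT over KO), the ratio of Cnot7 was 2.39 (1.31 to 3.46) untreated and 1.44 (0.89 to 1.99) after LPS, higher than in 99.2% and 95.7% of genes. That of Cnot6 was 0.94 (0.42 to 1.45) and 1.13 (0.78 to 1.49), and that of Cnot8 0.74 (-0.08 to 1.55) and 1.17 (0.45 to 1.88). Each of these nucleases thus passed 0.5 in both treatments, although the untreated interval of Cnot8 included 0. Cnot6l was lower than them in point value, at 0.00 (-0.36 to 0.36) and 0.39 (-0.06 to 0.85). Its intervals overlapped those of Cnot8 in both treatments and that of Cnot6 after LPS, but not those of Cnot7. Library totals raise every corrected ratio by 0.83 (untreated) or 1.2 (LPS). They put Cnot6l at 0.83 (0.47 to 1.19) and 1.59 (1.13 to 2.05), with intervals above 0. Cnot3 was at 1.89 (0.37 to 3.41) untreated and 0.11 (-0.90 to 1.12) after LPS. Cnot2, which had CPE forms but no deposited prediction, was at 0.46 (-0.74 to 1.65) and 0.50 (-0.56 to 1.55). With library totals Cnot2 was at 1.29 (0.09 to 2.48) and 1.7 (0.64 to 2.75). The scaffold Cnot1 and the module subunit Cnot11 lay below 0 after LPS, at -1.47 (-2.85 to -0.10) and -1.64 (-3.04 to -0.24). They had only 12 and 7 reads in the LPS-treated KO Input. Under library totals they stood at -0.28 (-1.65 to 1.1) and -0.44 (-1.84 to 0.96), with intervals that included 0. By count, 4 of 7 members were over 0.5 and 1 under untreated (background 30.5% and 29.4%), and 3 of 8 over and 2 under after LPS (26.8% and 32.4%). Their medians of 0.74 and 0.45 stood beside all-gene medians of 0.01 and -0.05. With library totals the splits were 6 of 7 and 6 of 8 over and 0 under, beside 64.3% over and 7.86% under among all genes untreated, and 73.9% and 5.47% after LPS.

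**Figure D3:**
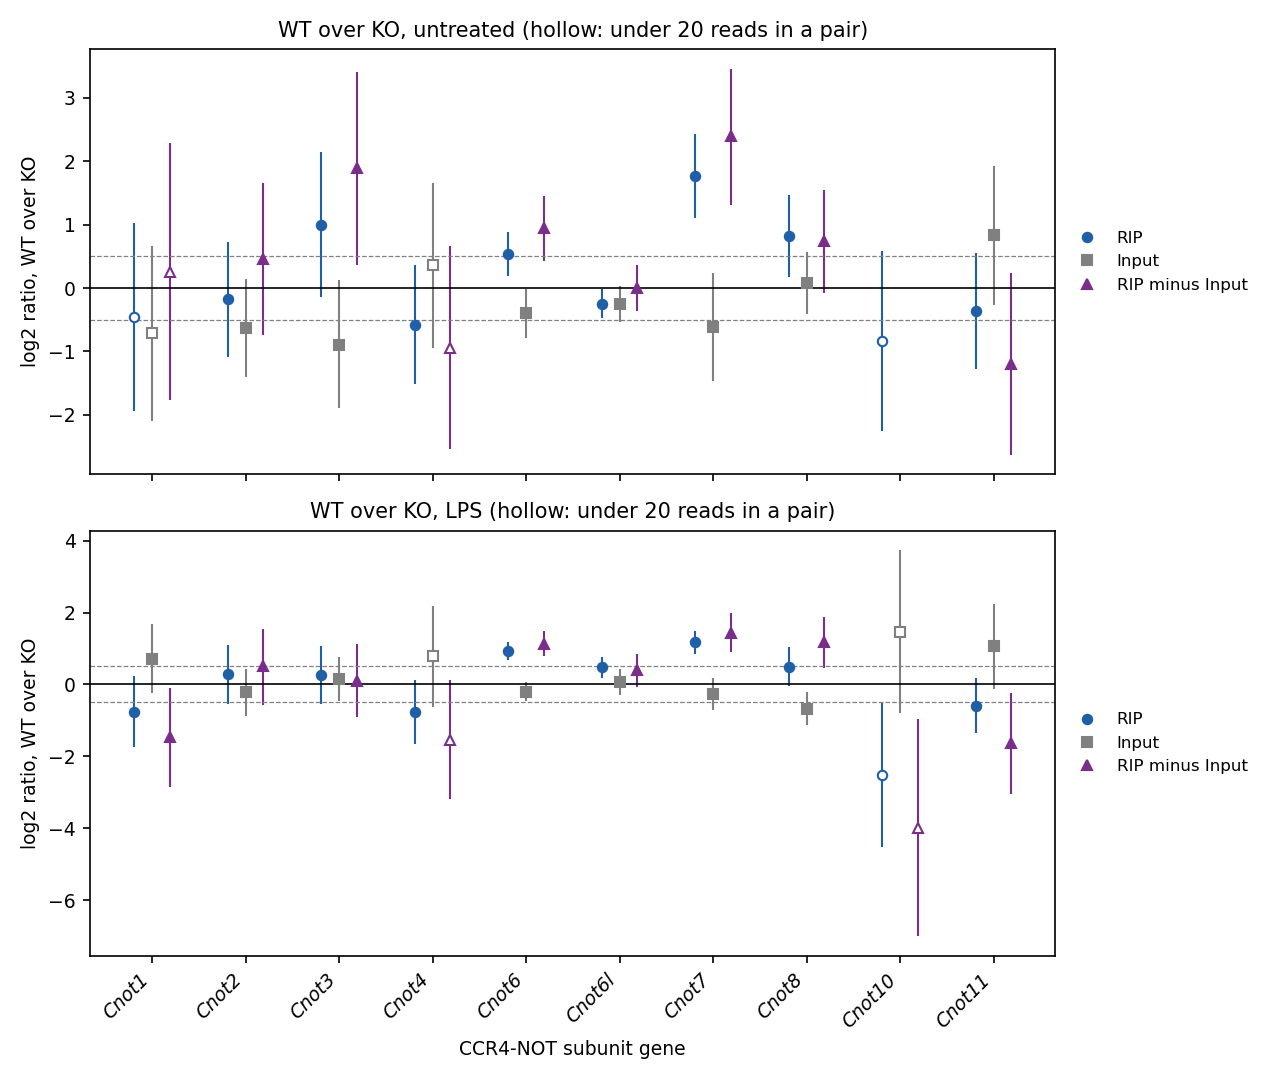
Log2 WT over KO ratios of the RIPs, the Inputs and their difference for untreated (top) and LPS-treated (bottom) cells, with 95% counting intervals. Cnot10 has no untreated Input ratio. Cnot7 and Cnot6 lie above 0 in the RIPs and at or below 0 in the Inputs in both panels.

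After LPS the nuclease mRNAs of the Inputs differed in direction, and the paralogues of each pair separated. Cnot6l went from 177 to 74.8 CPM in the WT and from 210 to 70.6 CPM in the KO, with log2 ratios of -1.24 (-1.56 to -0.91) and -1.57 (-1.89 to -1.25). Its paralogue Cnot6 went from 91.5 to 127 CPM and from 121 to 146 CPM, with ratios of 0.46 (0.11 to 0.82) and 0.27 (-0.02 to 0.56). The LPS intervals of these CCR4-type genes did not overlap in either genotype. Cnot7 went from 16.1 to 42.2 CPM in the WT and from 25.6 to 50.6 CPM in the KO, with ratios of 1.31 (0.54 to 2.08) and 0.96 (0.38 to 1.53). Cnot8 went from 60.3 to 33.7 CPM in the WT, a ratio of -0.84 (-1.35 to -0.33), and from 57.3 to 53.9 CPM in the KO, a ratio of -0.09 (-0.54 to 0.36). The KO interval of Cnot8 included 0, and its value turned to 0.05 under library totals and 0.12 under TMM scaling. The intervals of the CAF1-type genes did not overlap either. The difference between the genotypes for Cnot8 was -0.75 (-1.43 to -0.07), while it was 0.35 (-0.61 to 1.32) for Cnot7 and 0.33 (-0.12 to 0.79) for Cnot6l. Cnot3 was higher after LPS in the WT (1.21, 0.27 to 2.15) and stood at 0.17 (-0.53 to 0.87) in the KO, a difference of 1.04 (-0.13 to 2.21). Cnot2 was at 0.01 (-0.78 to 0.80) in the WT and at -0.40 (-1.04 to 0.24) in the KO. In the WT 3 of 9 members were over 0.5 and 3 under (background 26.5% and 30.5%), and in the KO 1 of 7 over and 1 under (24.6% and 35.2%). These shares were near the background or below it.

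The RIPs followed the Inputs for most of these genes. In the WT RIPs the LPS ratio was 0.76 (0.54 to 0.97) for Cnot7, 0.51 (0.34 to 0.68) for Cnot6, -0.84 (-1.01 to -0.67) for Cnot6l and -0.59 (-0.93 to -0.25) for Cnot8. In the KO RIPs it was 1.35 (0.65 to 2.05), 0.12 (-0.27 to 0.51), -1.56 (-1.89 to -1.24) and -0.27 (-1.04 to 0.50). Cnot7 was thus higher and Cnot6l lower after LPS in the Inputs and RIPs of both genotypes. By count, 2 of 9 members were over and 3 under in the WT (background 22.3% and 36.7%), and 1 of 8 over and 3 under in the KO (26.3% and 36.1%). Library totals shift the WT RIP ratios by 0.52, which moved the WT split to 3 over and 0 under (42.1% and 18.7% of all genes), with Cnot6l at -0.32 (-0.49 to -0.15) and Cnot8 at -0.07 (-0.41 to 0.27).

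**Figure D4:**
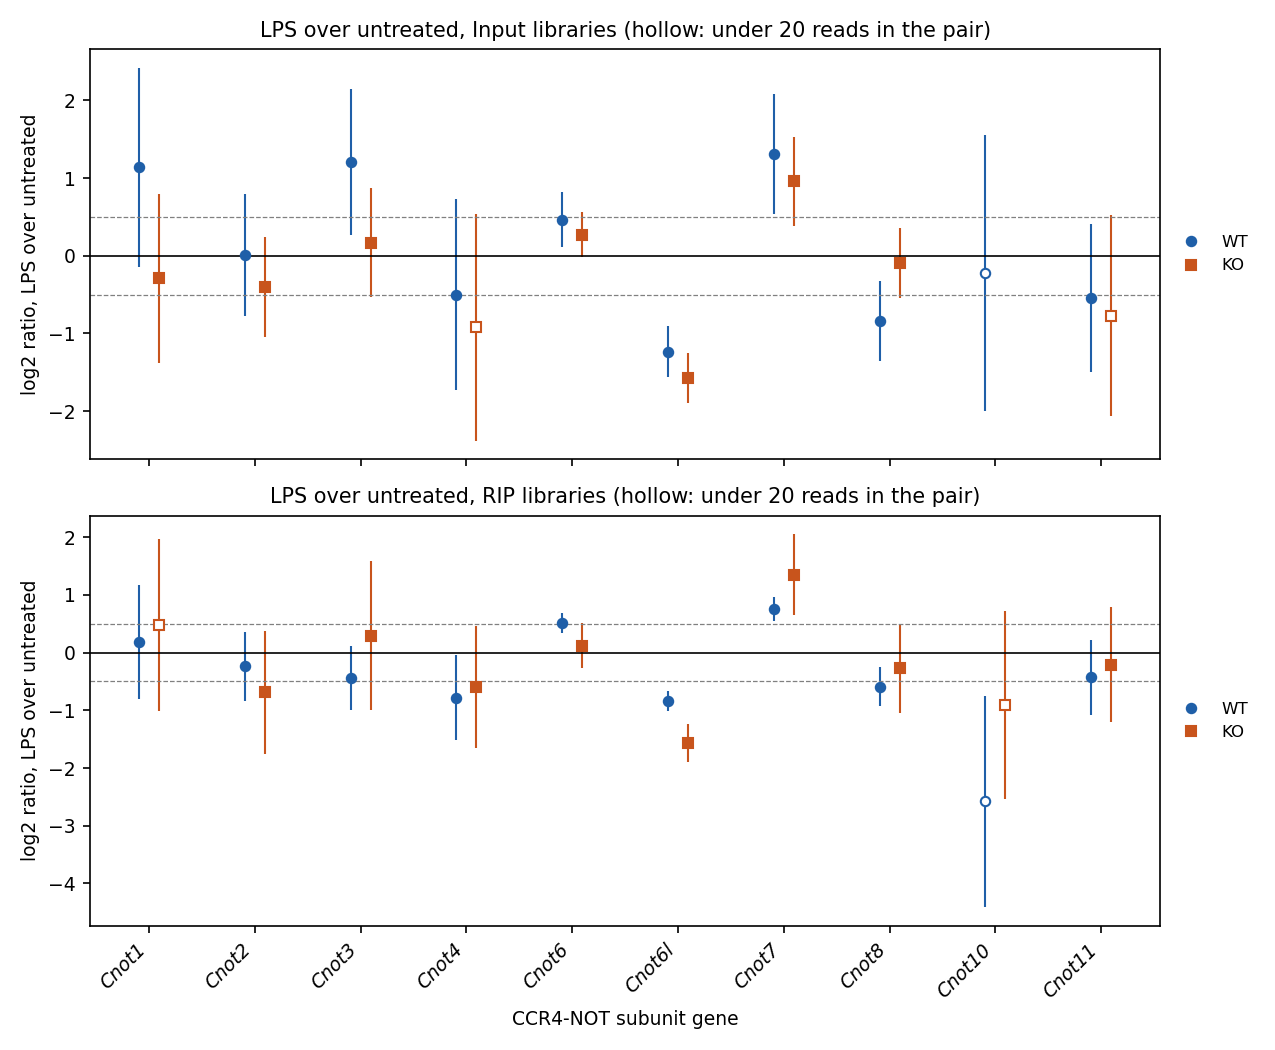
Log2 LPS over untreated ratios of the members in the Inputs (top) and RIPs (bottom) of WT and KO, with 95% counting intervals and hollow points for under 20 reads. Cnot7 lies above 0 and Cnot6l below 0 in all 4 series.

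Cnot6, Cnot6l and Cnot7 had a shorter 3′UTR with the same start and 0.1 to 0.8 times the length of the counted one, so the reads that lay only in the distal part could be separated. In Cnot7 the 496 distal bases, 34.3% of the region, held few Input reads: 1 of 15 (untreated) and 3 of 80 (LPS) in the WT, 4 of 34 and 4 of 76 in the KO. In the RIPs of the same cells they held 60 of 242 and 174 of 613 in the WT, and 8 of 19 and 27 of 94 in the KO. The distal share was thus 3.75% to 11.8% in the Inputs and 24.8% to 42.1% in the RIPs, and after LPS the highest upper bound of the Inputs (12.8%) was below the lowest lower bound of the RIPs (20.6%), whereas the untreated intervals overlapped. The higher share was found in the RIPs of both genotypes. The RIP minus Input difference was 18.1 and 24.6 percentage points in the WT (untreated, LPS), with 30.3 and 23.5 points for the KO. Of the 806 to 1030 genes with such a shorter 3′UTR and at least 10 reads in both libraries of a pair, 48.1% to 55.0% had a higher distal share in the RIP, with median differences of 0.0 to 1.28 points. Cnot6 had distal shares of 71.8% to 80% in the Inputs and 75.9% to 82.0% in the RIPs, with 87.0% of its length distal. Cnot6l had 48.6% to 57.7% in the Inputs and 57.8% to 64.0% in the RIPs. When Cnot7 was counted on its shorter 951-base region, the WT over KO RIP ratio was 2.10 (1.26 to 2.94) untreated and 1.18 (0.81 to 1.55) after LPS. The CPE and hexamers printed above for Cnot7 lie at the junction of its proximal and distal parts.

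**Figure D5:**
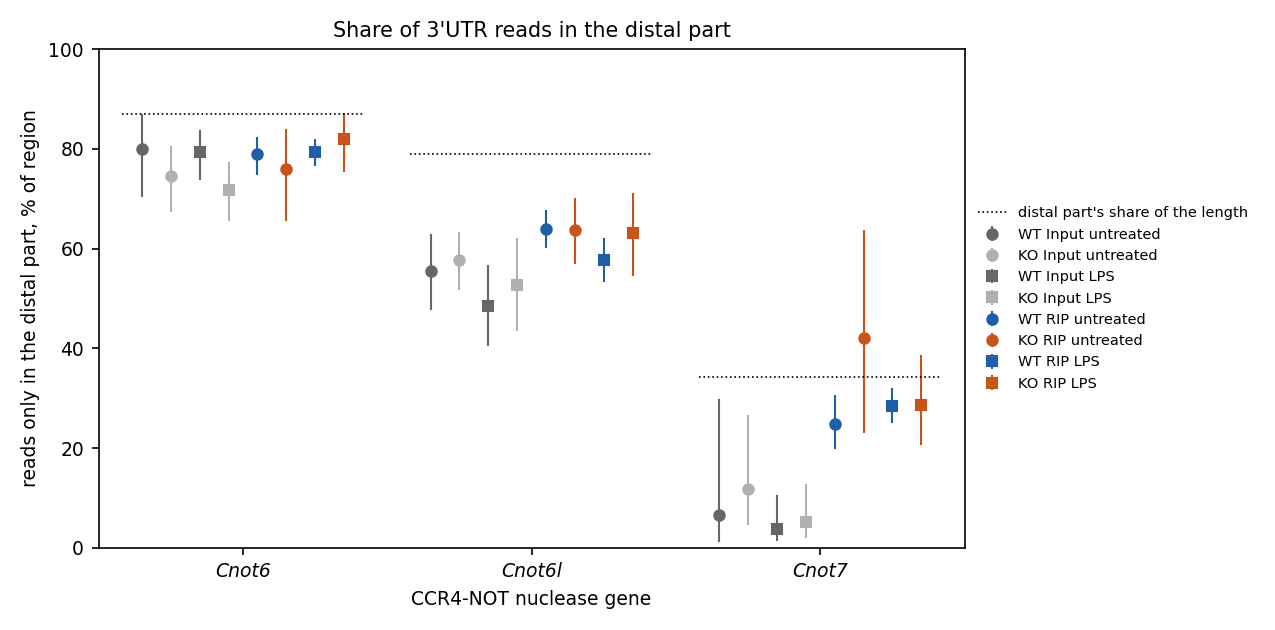
Share of the reads of Cnot6, Cnot6l and Cnot7 that lay only in the distal part of the 3′UTR in each of the 8 libraries, with 95% Wilson intervals. Dotted lines show the distal part's share of the length. For Cnot7 the 4 Inputs lie at 3.75% to 11.8% and the 4 RIPs at 24.8% to 42.1%.

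The pattern of Cnot7 over the 8 libraries was most like that of Tnfaip8, Pnrc1 and Sgk3, with root mean square differences of 0.237, 0.265 and 0.274 in centred log2 CPM, out of 4092 genes with at least 10 reads in each library. Their input-corrected WT over KO ratios were 1.80, 2.08 and 2.11 untreated and 0.83, 1.12 and 1.02 after LPS. The likeness is a description over 8 libraries, and the ratios come from the same libraries. Cnot6 was at 0.675 and Cnot8 at 1.23 from Cnot7 by the same measure, and Cnot6l at 1.37. The core subunit Cnot9, counted as Rqcd1 and outside the set, had 166 Input and 234 RIP reads in the untreated WT, and corrected ratios of 0.27 (-0.29 to 0.84) and 0.58 (0.17 to 0.98). Its WT over KO RIP ratios were 0.69 (0.21 to 1.16) untreated and 0.75 (0.43 to 1.06) after LPS.

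Other genes linked to poly(A) tails and mRNA decay were described by lists. They are to be read against the 30.5% (untreated) and 26.8% (LPS) of all genes with an input-corrected ratio over 0.5. Under library totals those shares were 64.3% and 73.9%, and the lists were not recounted there. Counts are out of the listed genes with at least 20 reads in each pair. Of the list of other deadenylases and related genes, 3 of 4 passed 0.5 upwards in the input-corrected ratio untreated and 4 of 6 after LPS, with 0 downwards and medians of 0.97 and 0.91. Pan3, which anchors the PAN2-PAN3 deadenylase, stood at 1.15 (0.59 to 1.71) and 0.66 (0.02 to 1.30), and Angel2 at 1.07 and 1.43. Among the proteins that recruit CCR4-NOT, 9 of 14 and 8 of 13 were over and 0 under, and Zfp36l1, a relative of TTP, had 1.01 (0.74 to 1.28) and 1.59 (1.15 to 2.04) while Btg1 had 0.53 and 0.41. Of the 5 poly(A) polymerase genes only 3 had enough reads, and 3 of 3 were over in each treatment. Papola was at 1.04 (0.53 to 1.54) and 0.77 (0.38 to 1.17), and Papd5 at 0.60 and 0.53. The decapping list gave 2 of 4 and 2 of 5 over and 0 and 1 under, with Dcp2 at 0.73 and 0.11 and its partner Dcp1a at 1.01 and 0.97. For the poly(A)-binding proteins and their partners the counts were 1 of 3 and 2 of 3, with Pabpc1 at 0.14 and 0.22 and Paip2 at 0.33 and 0.91. In the Inputs, Zfp36l1 was lower after LPS by a log2 ratio of -2.26 (-2.54 to -1.97) in the WT, with a KO value of -2.04 (-2.28 to -1.79), and 5 of 14 recruiters in the WT and 10 of 14 in the KO were under -0.5, with 1 over 0.5 in each, where 30.5% and 35.2% of all genes were under.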

How the data were processed

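RNA was crosslinked with formaldehyde, sonicated and precipitated with an anti-CPEB4 antibody, and the Inputs were depleted of rRNA. The authors aligned single-end reads to mm10 with Bowtie2 2.2.2, removed duplicates and tallied the reads overlapping each Ensembl 3′UTR, and the deposited read counts sum both lanes. The deposited RPKM values served only to recover the library totals. The deposited peak score is the highest score of MACS 1.4.2 peaks over a region, called by the authors for each RIP against its Input, with 0 for none. The authors' fold change and p-value columns were not used.

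Of 31117 regions, 495 had no symbol (0.902% to 1.04% of the reads) and stayed out. For each gene the region with the most reads was kept. Counts were scaled to the sum over named regions, 1 read was added, and the log2 ratio was given a normal 95% counting interval. Ratios need over 3 reads in 1 library of a pair, and counts of members use at least 20 reads. Shares have Wilson intervals, also for counting error only. All members, Cpeb4, the 2 genes with the most reads of each list and the 3 genes most like the member with the highest corrected ratio are named. The members and lists were chosen with earlier results of these data known, and the proximal and distal parts and the motif search after seeing the data. Scripts were tested on simulated data. TMM factors came from edgeR 4.0.16, copies from BLAST 2.17.0, and overlaps from GENCODE M21. Alternatives were scaling, added reads, read minimum, fold, region and interval.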

Additional observations from a re-analysis of the deposited data

Results flagged for a closer look

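Cnot6l was singled out because its WT over KO RIP ratio had opposite signs in the 2 treatments, each beyond counting error: -0.25 (-0.48 to -0.02) untreated and 0.48 (0.19 to 0.76) after LPS. The difference, LPS minus untreated, was 0.73 (0.36 to 1.09). The same 4 libraries gave an LPS over untreated RIP ratio of -0.84 in the WT and -1.56 in the KO. With 1 library per condition the difference was not tested. Both signs were positive when scaled to library totals (0.59 and 1.62), and with TMM scaling the untreated value was -0.06 (-0.29 to 0.17), within counting error. The difference of the input-corrected ratios was 0.40 (-0.19 to 0.98), which included 0.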

How the results depend on the processing

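Members past the threshold were recounted under 9 alternatives in each of the 14 comparisons, and 96 of these 126 counts stayed within 1.5 times the main one. These counts sum both directions, so a split that turned can stay within that limit: under library totals WT over KO RIP after LPS went from 2 over and 3 under to 7 and 0, and RIP over Input in the LPS-treated KO from 5 and 0 to 2 and 3. Scaling to library totals turned 16 of 114 member signs, 5 of them of ratios over 0.5 in size: Cnot7 RIP over Input in the untreated KO became -0.07, the WT over KO RIP ratio of Cnot4 became 0.26 untreated and 0.38 after LPS, and after LPS those of Cnot1 and Cnot11 became 0.38 and 0.55. Library totals and TMM each cut the LPS over untreated RIP count in the WT from 5 to 3. With at least 50 reads, the RIP over Input counts of the KO went from 5 to 2 in both treatments, WT over KO RIP after LPS from 5 to 3, WT over KO Input from 4 to 1 (untreated) and 3 to 1 (LPS), the input-corrected ratio from 5 to 2 and from 5 to 3, and LPS over untreated RIP in the KO from 4 to 2. With no read minimum, WT over KO Input after LPS went from 3 to 5 and LPS over untreated Input in the KO from 2 to 4. A log2 ratio over 1 left 3 (RIP over Input, WT LPS), 3 (KO untreated), 2 and 1 (WT over KO RIP), 0 and 1 (WT over KO Input), 3 (input-corrected, untreated), 1 (LPS over untreated Input, KO), 0 (LPS over untreated RIP, WT) and 2 (KO). An interval that excluded 0 left 4 (RIP over Input, WT LPS), 3 (KO untreated), 3 and 2 (WT over KO RIP), 0 and 1 (WT over KO Input), 3 (input-corrected, untreated) and 2 (LPS over untreated RIP, KO). Stricter rules count fewer members by construction, and the cause of the scaling shifts was not tested. On the shorter nested regions, chosen after seeing the data, 8 of 42 ratios of Cnot6, Cnot6l and Cnot7 moved, and the signs of 2 that were under 0.5 in size turned, both of Cnot6 in the KO (RIP over Input after LPS to -0.28, LPS over untreated RIP to -0.31). No paired analysis was possible because each condition had 1 library. Members with under 20 reads in a pair, Cnot10 throughout, were limited by depth.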
